A study of Bos taurus with 14 samples.

Results

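The 9 genes described here encode enzymes or enzyme subunits of the tricarboxylic acid (TCA) cycle: CS, IDH2, IDH3A, IDH3B, OGDH, SUCLA2, SUCLG1, FH and MDH2. They were chosen by symbol, with earlier results of these data known. Each symbol stood on 1 of the 18078 gene rows of the count table, and all 9 were among the 12187 genes with enough reads to be tested. RNA sequencing was done on longissimus dorsi, a back muscle, from 14 female cattle (Bos taurus) at postnatal day 485. The dams of the 7 control animals were fed 100% of their requirement from gestational day 158 to calving. The dams of the 7 restricted animals were fed less over that period: 70% in the text on the series' design and 50% in the treatment protocol, so no level is used here. The offspring were handled alike after birth and had free access to feed from day 301. Breed and parentage are not stated in the labels, and each library is taken as 1 animal, numbered 1 to 7 within its group.

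The TCA cycle runs in the mitochondrial matrix. It oxidises acetyl groups from pyruvate, fatty acids and amino acids to carbon dioxide, and passes the electrons to the respiratory chain, mostly as NADH. In muscle, slow fibres, which contain the beta or slow myosin heavy chain encoded by MYH7, are generally rich in mitochondria and in these enzymes, and fast glycolytic fibres have less of them. The samples were whole muscle, in which fewer fibres of a type and less RNA per fibre cannot be told apart.

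Total counts per animal ranged from 13631018 to 17325779. Levels are given as CPM, the share of a library's counts multiplied up to a fixed total, after trimmed mean of M-values scaling. The tissue label was checked with 6 skeletal muscle fibre genes, whose summed level was 112895 to 143492 CPM in the controls and 125480 to 156803 CPM in the restricted animals. Summed markers of adipocytes (6 genes) were at 18.4 to 166 CPM in the controls and 37.2 to 181 CPM in the restricted animals, and those of fibroblasts (6 genes) at 382 to 980 CPM and 447 to 1135 CPM. The fast myosin MYH1 had 9250 ± 897 CPM per kilobase of gene model (SD, n = 14) and the slow myosin MYH7 had 1907 ± 430.

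Per kilobase of gene model, MDH2, the mitochondrial malate dehydrogenase that closes the cycle by making oxaloacetate, had the highest level of the 9, 552 ± 62.8 CPM per kilobase (SD, n = 14). OGDH, the first component of the alpha-ketoglutarate dehydrogenase complex, had the lowest, 46.5 ± 4.21. Both stood clear of the rest in every animal, since MDH2 did not fall below 454 CPM per kilobase and OGDH did not exceed 55.1. Between them came SUCLA2 at 199 ± 19.3, IDH2 at 187 ± 31.3, SUCLG1 at 171 ± 15.9, CS at 162 ± 24.7, IDH3B at 152 ± 19.4, IDH3A at 117 ± 12.6 and FH at 109 ± 12.4. Each of these 7 overlapped its neighbours in this order within 1 SD of the means, except IDH3B and IDH3A. For comparison, SDHA, the flavoprotein subunit of succinate dehydrogenase, had 217 ± 20.2 CPM per kilobase, DLST, the core component of the alpha-ketoglutarate dehydrogenase complex, had 92.9 ± 7.82, and IDH3G, the third subunit of the NAD-linked isocitrate dehydrogenase, had 81.5 ± 8.55.

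The animals differed little in these levels. Between the highest and the lowest animal the ratio ran from 1.41 for IDH3A to 1.84 for CS, while it was 2.19 for MYH7. The SD of log2 CPM over the 14 animals had a median of 0.16 over the 9 genes. It was likewise 0.16 (quartiles 0.13 and 0.21) over the 359 genes whose mean CPM lay in the same range, 215 to 715. IDH2 varied most, with an SD of 0.24, followed by CS with 0.20, and SUCLG1 and OGDH least, both with 0.13.

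Whether feeding of the dam was followed by a difference in the offspring was tested for each gene over all 7 against 7 animals with edgeR's quasi-likelihood F test. No enzyme differed between the diets after adjustment. Of all 12187 genes tested, 0 (0%) had a Benjamini-Hochberg adjusted p under 0.05, and 518 (4.25%) had an unadjusted p under 0.05. At that unadjusted threshold 2.17% of all genes were higher in the restricted animals and 2.08% lower. Of the 9 enzymes 1, CS, had an unadjusted p under 0.05, and it was higher. All 9 estimates lay above 0 in the restricted animals, against 49.7% of all genes, with a median log2 fold change of 0.09 against -0.0008 over all genes. The 9 genes were measured in the same animals, and 35 of their 36 pairs correlated positively over all 14, so their common sign is not 9 separate observations.

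CS, citrate synthase (ENSBTAG00000004371), joins acetyl-CoA to oxaloacetate and is widely used as a marker of the mitochondrial content of muscle. Its lowest, median and highest levels were 370, 458 and 471 CPM in the controls, and 437, 501 and 682 CPM in the restricted animals. The groups overlapped, although 6 of 7 restricted animals lay above the control median and 4 of 7 above the highest control. The restricted mean was 1.17-fold that of the controls (95% interval 1.02 to 1.34, unadjusted p = 0.0304, adjusted p = 0.999984). The highest value was that of restricted 1. Without that animal the log2 fold change of CS fell from 0.22 to 0.14 (unadjusted p = 0.0823). It was 0.12 (unadjusted p = 0.201) in the 11 animals whose titles begin with Y and 0.07 (unadjusted p = 0.364) in the 9 whose titles end in A, letters whose meaning is not given.

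**Figure D1:**
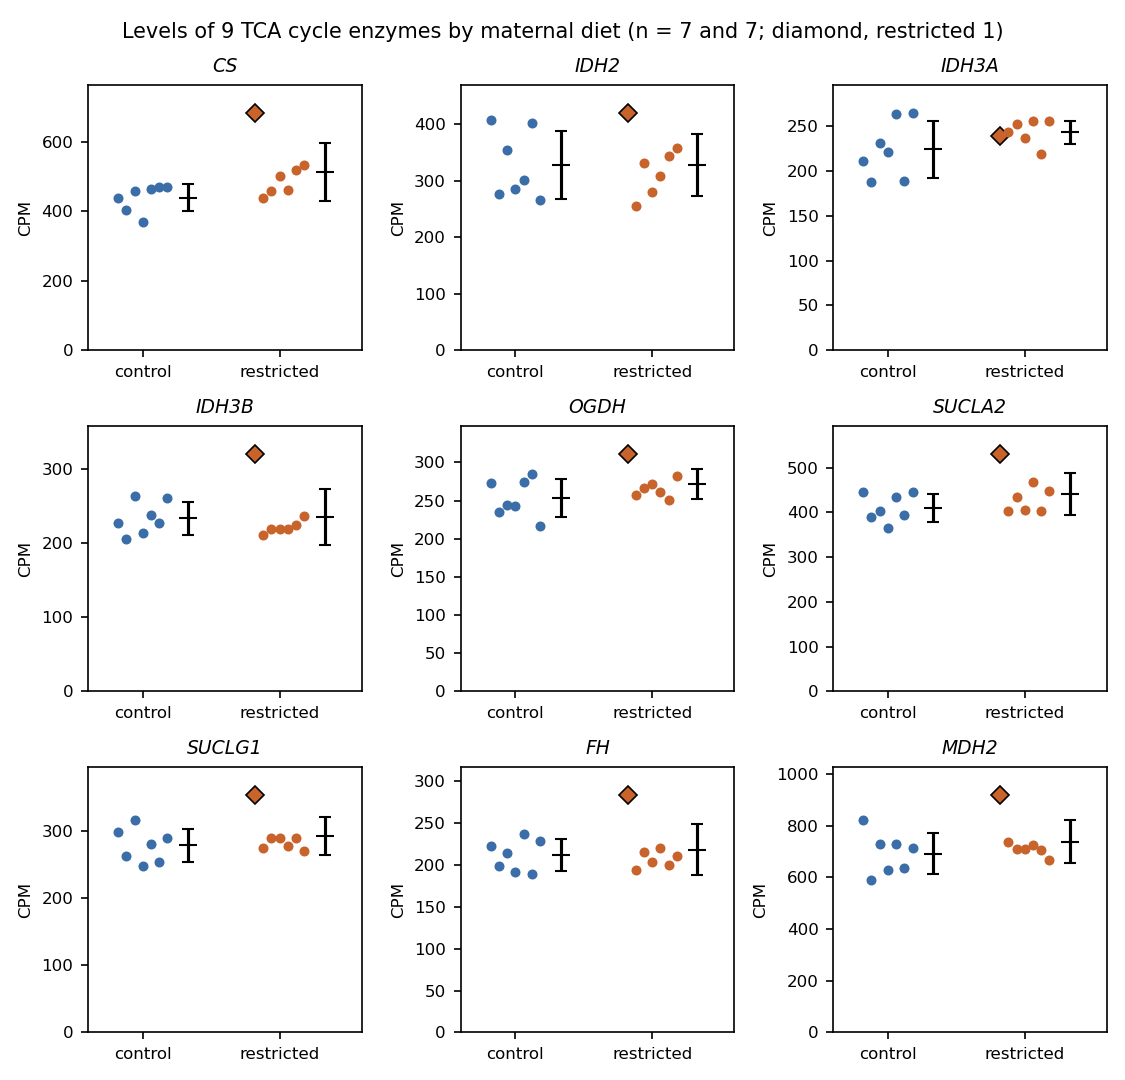
Level of each of the 9 TCA cycle genes (vertical axis, CPM from 0) in the 7 control (blue) and 7 restricted (orange) animals, with 1 point per animal and the mean and SD of each group to the right of its points. The diamond is restricted 1, the highest animal in every panel except IDH3A, and the groups overlap in all 9 panels.

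The next step, from isocitrate to alpha-ketoglutarate, is catalysed in the mitochondrion by a NAD-linked enzyme with catalytic subunits encoded by IDH3A and regulatory ones by IDH3B and IDH3G, and by the NADP-linked enzyme IDH2. IDH3A (ENSBTAG00000006227) had lowest, median and highest levels of 187, 221 and 264 CPM in the controls and 219, 243 and 255 CPM in the restricted animals. The restricted animals lay inside the range of the controls, 6 of 7 above the control median, and the SD was 31.6 CPM in the controls and 13.1 CPM in the restricted animals (n = 7 each); this difference in spread was not tested. The fold was 1.09 (95% interval 0.960 to 1.23, unadjusted p = 0.176). IDH3B (ENSBTAG00000018813) had 206, 228 and 263 CPM in the controls and 211, 219 and 320 CPM in the restricted animals. Apart from restricted 1, all restricted animals lay between 211 and 236 CPM, and 2 of 7 were above the control median. The fold of IDH3B was 1.01 (0.879 to 1.16, unadjusted p = 0.898), and the log2 fold change turned from 0.01 to -0.08 without restricted 1.

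IDH2 (ENSBTAG00000014093), whose NADPH also serves antioxidant defence, had 266, 301 and 408 CPM in the controls and 256, 331 and 420 CPM in the restricted animals. The groups covered almost the same range, and their means were 327 ± 59.9 and 328 ± 54.1 CPM (SD, n = 7 each). The fold was 1.002 (95% interval 0.838 to 1.197, unadjusted p = 0.983).

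OGDH (ENSBTAG00000006029) feeds succinyl-CoA into the second part of the cycle. Its levels were 217, 244 and 284 CPM in the controls and 251, 266 and 311 CPM in the restricted animals. All 7 restricted animals were above the control median and 1 was above the highest control, so the groups overlapped. The fold was 1.07 (95% interval 0.965 to 1.19, unadjusted p = 0.176), and the log2 fold change of 0.10 was 0.07 without restricted 1.

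Succinyl-CoA synthetase, which makes a nucleotide triphosphate directly in the cycle, has an alpha subunit encoded by SUCLG1 and an ADP-forming beta subunit encoded by SUCLA2. SUCLA2 (ENSBTAG00000006759) had 364, 403 and 446 CPM in the controls and 403, 433 and 530 CPM in the restricted animals, and 3 of 7 restricted animals exceeded the highest control. Its fold was 1.07 (95% interval 0.962 to 1.2003, unadjusted p = 0.186), and the log2 fold change of 0.10 was 0.05 without restricted 1. SUCLG1 (ENSBTAG00000006075) had 248, 281 and 317 CPM in the controls and 270, 289 and 354 CPM in the restricted animals. Only restricted 1 exceeded the highest control for SUCLG1, and 4 of 7 restricted animals lay above the control median. Its fold was 1.05 (0.939 to 1.17, unadjusted p = 0.376), and the log2 fold change of 0.07 was 0.02 without restricted 1.

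FH (ENSBTAG00000021688), fumarate hydratase, had 190, 214 and 238 CPM in the controls and 194, 211 and 284 CPM in the restricted animals. The medians were alike and 3 of 7 restricted animals lay above the control median. Its fold was 1.03 (95% interval 0.909 to 1.17, unadjusted p = 0.611), and without restricted 1 the log2 fold change turned from 0.04 to -0.03. MDH2 (ENSBTAG00000009462) had 588, 713 and 820 CPM in the controls and 666, 710 and 919 CPM in the restricted animals, again with 3 of 7 above the control median and only restricted 1 above the highest control. Its fold was 1.07 (0.940 to 1.21, unadjusted p = 0.294), and the log2 fold change of 0.09 was 0.03 without restricted 1.

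For all 9 enzymes the 95% interval left out a 1.5-fold difference in either direction, as it did for 77.8% of all genes tested. The rest of the cycle and its entry points, a list of 28 genes of which 27 were tested (OGDHL was not), held 0 genes past the adjusted threshold. In that list 20 of 27 estimates were above 0 with a median log2 fold change of 0.05, and 3 had an unadjusted p under 0.05, all higher in the restricted animals. These 3, named after their values were seen, were ACO1, the cytosolic aconitase (1.15-fold, unadjusted p = 0.0475), GOT1, the cytosolic aspartate aminotransferase (1.25-fold, unadjusted p = 0.0473), and PDK4, a kinase that switches off pyruvate dehydrogenase (3.33-fold, unadjusted p = 0.0339). The fold of PDK4 rested on few animals, since the median was 93.1 CPM in the controls and 60.6 CPM in the restricted animals, of which 2 exceeded the highest control and 1 reached 1204 CPM. DLST (1.04-fold), SDHA (1.0001-fold) and IDH3G (1.02-fold) had unadjusted p values of 0.401, 0.999 and 0.712. Among 8 regulators of mitochondrial genes 5 estimates were above 0 and 0 passed either threshold. The coactivator gene PPARGC1A was at 0.945-fold, the nuclear receptor gene ESRRA at 1.10-fold and TFAM, which encodes a mitochondrial DNA packaging and transcription factor, at 1.03-fold.

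One animal stood apart within the restricted group. Restricted 1 had the highest level of 8 of the 9 genes among all 14 animals; the exception was IDH3A, which was highest in control 7. The 9 genes took 0.405% of its counts, against 0.287% to 0.333% in the other 13 animals. At the other end, control 2 and control 4 each had the lowest level of 3 genes. The library of restricted 1 was not unusual in depth (15969586 counts), and it ranked 4 of 14 for MYH7. Its summed marker levels ranked 7 for adipocytes, 5 for fibroblasts, 8 for endothelium, 8 for smooth muscle and pericytes and 6 for skeletal muscle fibres, and it ranked 2 for markers of macrophages, of T cells and of red cells, which were at 20.3, 6.21 and 4.77 CPM in it. It also ranked 2 for the slow fibre list, at 55125 CPM, and 2 for the other genes of the cycle and its entry, at 7929 CPM. For the fast fibre list it ranked 8, at 165230 CPM. Its level of the fast myosin MYH4, 758 CPM, was the highest of the 14 animals, with restricted 4 next at 750 CPM. The first letter of the sample titles is R in 3 animals and Y in 11, and restricted 1 was the only restricted animal with R. The last letter of its title is B, as in 5 of the 14 animals. The part of these measures in its high enzyme levels was not tested.

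**Figure D2:**
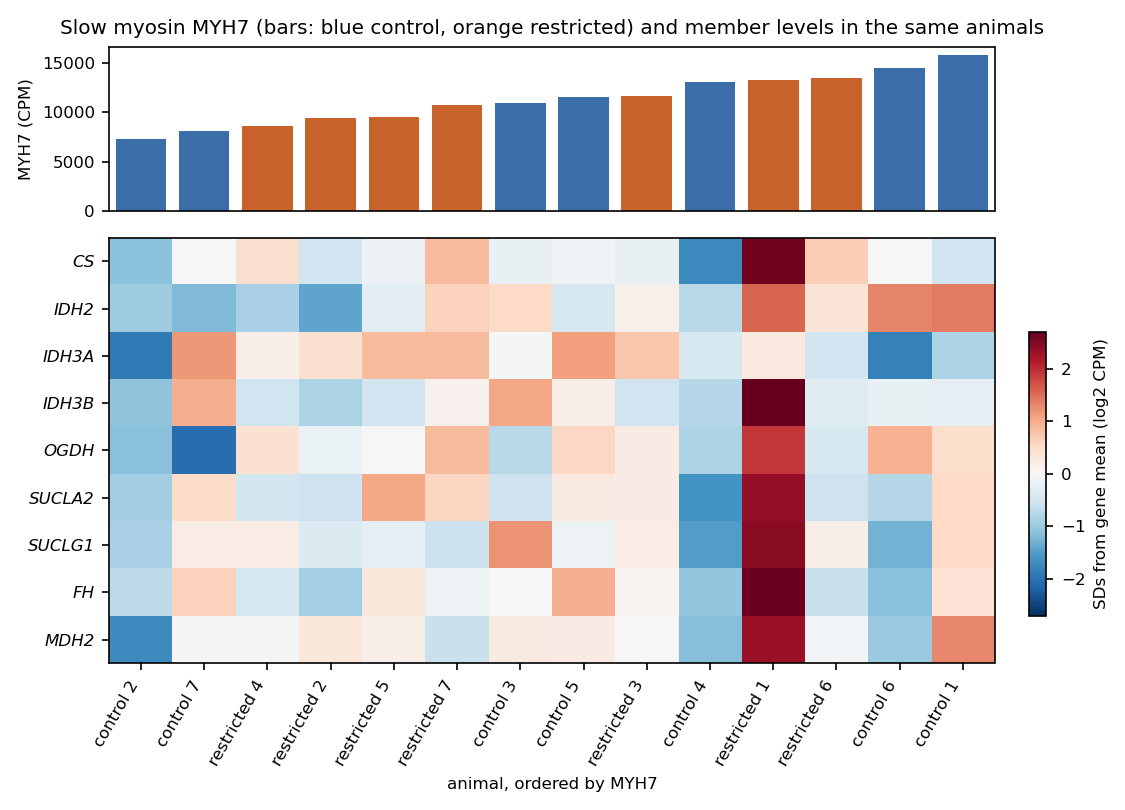
Bars at the top give the level of MYH7 (CPM from 0) in each of the 14 animals, ordered from the lowest (control 2) to the highest (control 1), in blue for control and orange for restricted. The grid below gives, for the same animals, each gene's log2 CPM in SDs from its mean over the animals, with red above and blue below the mean; the column of restricted 1 is red for all 9 genes, and of the 9 rows that of IDH2 turns most clearly from blue to red from left to right.

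Across the 14 animals the 9 genes tended to rise and fall together. Of the 36 pairs 35 had a positive Pearson correlation of log2 CPM, 17 were above 0.6, and the median r was 0.519 (median Spearman rho 0.431). Each gene's median r with all other tested genes lay between -0.0286 and -0.0060. The share of all gene pairs above 0.6 was not computed. With the other 8 members the median r was lowest for IDH3A (0.308), IDH2 (0.445) and OGDH (0.447). Without restricted 1 it was lowest for OGDH (0.0749) and IDH2 (0.203), and it was 0.387 for IDH3A. The closest pair was SUCLA2 and FH, with r = 0.896 (permutation p = 4e-05) and rho = 0.837 (permutation p = 0.00025). Next came SUCLG1 and MDH2 with r = 0.868 and rho = 0.749, and IDH3B and FH with r = 0.824 and rho = 0.644. None of the 36 pairs passed after Benjamini-Hochberg adjustment over the 109674 relations of the 9 genes with all other tested genes, of which 0% passed with a positive sign. The adjusted p was 0.177 for SUCLA2 and FH and 0.223 for SUCLG1 and MDH2. These correlations share the libraries and their scaling, and the permutations could give no p below 1e-05. With that floor and 109674 relations, a pair on its own could not pass at any r. The adjustment therefore cannot decide about single pairs.

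The covariation rested in part on restricted 1. Without it the median r was 0.370, and 4 pairs instead of 17 were above 0.6; SUCLA2 and FH kept r = 0.790 and SUCLG1 and MDH2 r = 0.749. Without the 2 animals farthest from the median of the 9 genes' mean, restricted 1 and control 2, the median was 0.227, while the r of those pairs was 0.781 and 0.765. With each gene centred within its diet group the median was 0.512. In the 11 animals whose titles begin with Y the median was 0.298, and in the 9 whose titles end in A it was -0.0925, with 16 of 36 pairs positive and with SUCLA2 and FH at 0.757 and SUCLG1 and MDH2 at 0.659. The 3 animals with R and the 5 with B were too few for a value of their own.

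**Figure D3:**
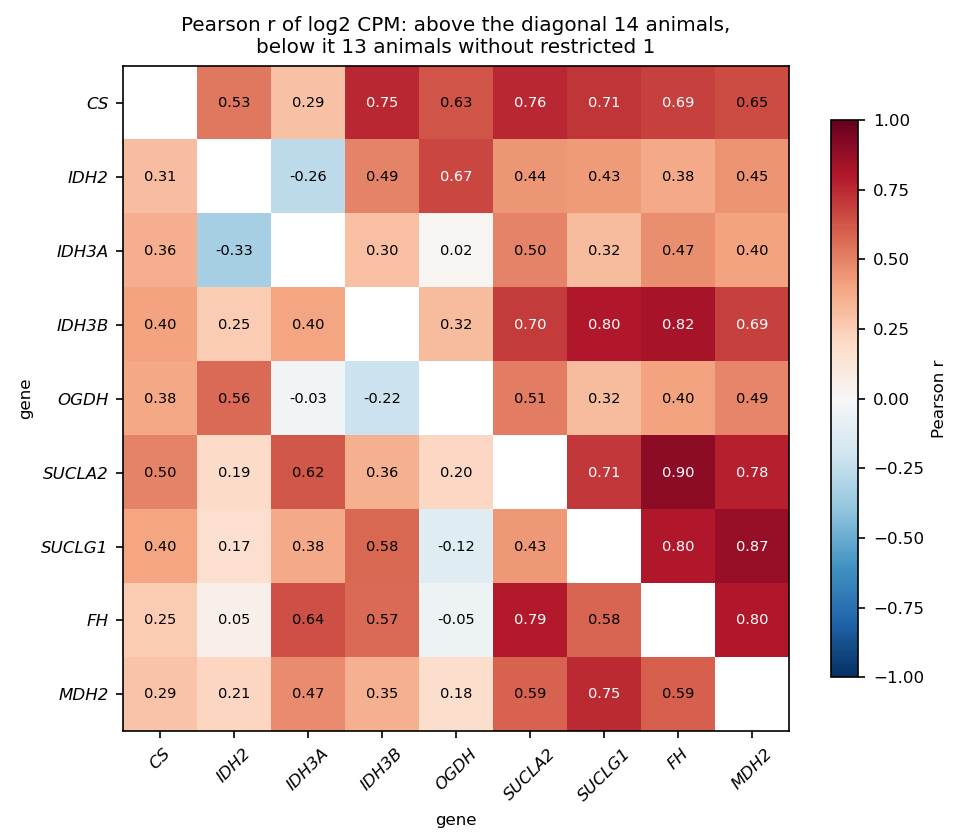
Pearson correlation of log2 CPM for each pair of the 9 genes (color scale from -1 to 1), above the diagonal over all 14 animals and below it over the 13 animals without restricted 1. SUCLA2 and FH are the closest pair on both sides, and IDH2 and IDH3A have the lowest value on both sides (-0.264 and -0.335).

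Among the genes of isocitrate oxidation, IDH2 and IDH3A had the lowest r of the 36 pairs, -0.264 (permutation p = 0.357; rho = -0.266), and it was -0.335 without restricted 1, -0.601 without restricted 1 and control 2, -0.514 in the animals with Y and -0.833 in those with A. IDH2 and IDH3B, by contrast, had a positive r of 0.495 (permutation p = 0.0665, adjusted 0.772; rho = 0.578, permutation p = 0.0335, adjusted 0.716), which was 0.252 without restricted 1, 0.224 with Y and -0.167 with A. For IDH3A and its partner subunit gene IDH3B r was 0.299 (permutation p = 0.305), and it was 0.398 without restricted 1. For IDH3A and OGDH r was 0.0218, and -0.0279 without restricted 1. The first principal component of the 9 standardised genes held 62.1% of their variance, with loadings of one sign from 0.174 for IDH3A to 0.387 for FH. The second held 16.9%, and there IDH2 (0.586) and OGDH (0.448) lay opposite to IDH3A (-0.621), with the others between -0.174 and 0.103. The ratio of IDH2 to IDH3A in CPM, not corrected for length and so read only between animals, ran from 1.01 in control 7 to 2.13 in control 6.

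By the mean log2 CPM of the 9 genes, the 5 other genes most like them among 11442 with a symbol were UQCRC1 (r = 0.932) and UQCRC2 (0.917), core proteins of respiratory complex III, ATP5F1B (0.922) and ATP5F1C (0.917), subunits of ATP synthase, and PDHB (0.903), a subunit of pyruvate dehydrogenase. Without restricted 1 these values were 0.877, 0.819, 0.807, 0.794 and 0.841. The 3 genes at the other end were MPPE1 (-0.842), ARMC5 (-0.816) and SYDE2 (-0.807), which had low mean levels of 2.98, 1.40 and 1.51 log2 CPM. Without restricted 1 their r was -0.680, -0.648 and -0.509. The genes at both ends were picked as the extremes of 11442, and their r values were not tested. Taken singly, SUCLA2 followed the mean of the other 8 members most closely (r = 0.869) and IDH3A least (0.273). Without restricted 1 the corresponding values were 0.733 and 0.368, and those of OGDH (0.268) and IDH2 (0.228) were lower still.

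The relation of the enzymes to slow fibres was examined through MYH7 (ENSBTAG00000009703). MYH7 had lowest, median and highest levels of 7256, 11533 and 15876 CPM in the controls and 8656, 10749 and 13554 CPM in the restricted animals. All restricted animals lay inside the control range, and the fold was 0.946 (95% interval 0.744 to 1.203, unadjusted p = 0.632, adjusted p = 0.999984). MYH7 can share reads with the near-identical MYH6, which had 83.2 CPM on average. Each gene was fitted on the log2 CPM of MYH7 with diet as a second term, which gives the change per doubling of MYH7 at equal diet, while the highest and lowest animals differ by 2.19-fold. Of 12186 genes 4 (0.0328%) passed the adjusted threshold, all of them higher with MYH7. With 1 animal left out, 0 genes passed in 10 of 14 fits and 3 to 5 in the others, and 0 passed with title letters as terms. All 4 belong to the slow fibre list: MYL6B (5.52-fold per doubling, adjusted p = 0.0313), MYL2 (1.81-fold, adjusted p = 0.0313), TNNT1 (2.33-fold, adjusted p = 0.0313) and TNNI1 (2.003-fold, adjusted p = 0.0425) encode light chains of myosin and slow troponin subunits. Of that list 13 of 13 genes had positive slopes, with a median of 0.89 log2 per doubling. In the fast fibre list 2 of 15 were positive, with a median of -0.14; MYH1 had a slope of 0.915-fold, MYH2 of 1.51-fold and the scarce MYH4 of 0.367-fold (95% interval 0.0559 to 2.41).

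None of the 9 enzymes passed the adjusted threshold. An unadjusted p under 0.05 was reached by 2 of 9, IDH2 and OGDH, both higher with MYH7, against 725 of 12186 genes (5.95%). Of all genes 3.56% were higher with MYH7 and 2.39% lower at that threshold. Of the 9 slopes 8 were above 0, against 50% of all genes, and their median was 0.11 log2 per doubling against 0.0001 over all genes. For 8 of the 9, all except IDH2, the 95% interval left out a 1.5-fold change per doubling in either direction, which held for 52.3% of all genes.

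IDH2 had the steepest slope of the 9. The 3 highest levels of IDH2, 420, 408 and 402 CPM, were in restricted 1, control 1 and control 6, which ranked 4, 1 and 2 for MYH7. The 3 lowest, 256, 266 and 276 CPM, were in restricted 2, control 7 and control 2, which ranked 11, 13 and 14. The animals between did not all follow this order. Control 4 had 286 CPM at rank 5 and restricted 6 had 343 CPM at rank 3, while restricted 7 had 358 CPM at rank 9. IDH2 was 1.47-fold higher per doubling of MYH7 (95% interval 1.21 to 1.79, unadjusted p = 0.000741, adjusted p = 0.229). The slope was positive under every one of the 25 alternatives, between 0.50 and 0.66 log2, with adjusted p values from 0.0236 to 0.797; of these only DESeq2, with 0.0236, was past the threshold. The correlation of log2 CPM over 14 animals was r = 0.770 (permutation p = 0.00188, adjusted over 12186 genes 0.471) and rho = 0.776 (permutation p = 0.00189). With no permutation p below 1e-05 and 12186 genes, a gene on its own could not pass this adjustment at any r. Counting IDH2 itself, 29 genes (0.238%) had an r at least as high. The r of IDH2 was 0.710 without control 2 and control 1, the 2 animals farthest from the median of MYH7. Within the diets r was 0.782 in the 7 controls and 0.804 in the 7 restricted animals, and it was 0.681 in the 11 animals with Y and 0.917 in the 9 with A.

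OGDH had the second slope, 1.17-fold per doubling (95% interval 1.01 to 1.36, unadjusted p = 0.0394, adjusted p = 0.806). Its r with MYH7 was 0.536 (permutation p = 0.0478, adjusted 0.849) and rho 0.508 (permutation p = 0.0668), and r was 0.457 without control 2 and control 1. It was 0.780 in the controls and 0.277 in the restricted animals, 0.365 in those with Y and 0.553 in those with A. The slope was positive under all 25 alternatives.

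**Figure D4:**
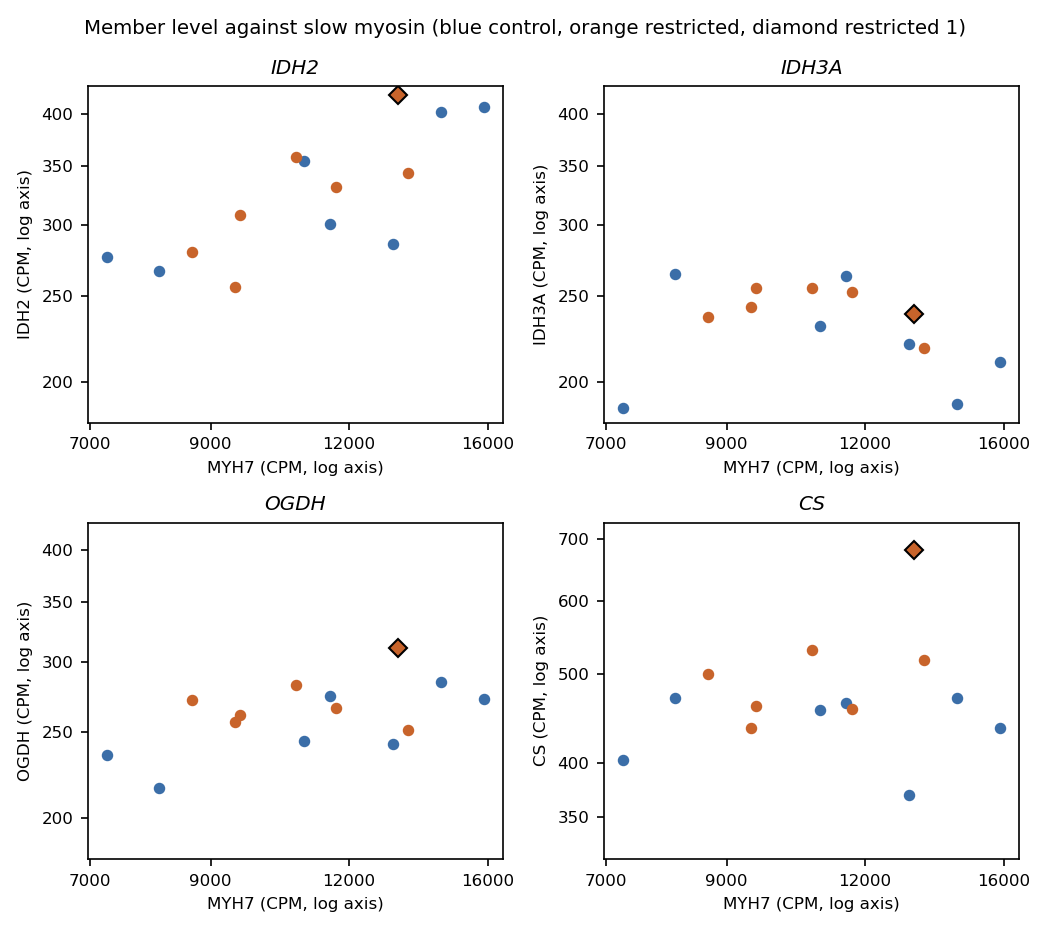
Level of IDH2, IDH3A, OGDH and CS (vertical axes, CPM on a log scale) against the level of MYH7 (horizontal axes, CPM on a log scale) in 7 control (blue) and 7 restricted (orange) animals, with restricted 1 as a diamond. IDH2 climbs with MYH7 (r = 0.770) and OGDH less (0.536), while CS (0.184) and IDH3A (-0.221) show little relation over the 14 animals. The r of IDH3A hangs on single animals: it runs from -0.698 without control 2, at the far left, to -0.0519 without control 6. Its slope, fitted with diet as a term, is 0.0001 log2 per doubling without control 7.

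IDH3A was the only one of the 9 with a slope below 0, 0.928-fold per doubling (95% interval 0.762 to 1.13, unadjusted p = 0.436). Its r with MYH7 was -0.221 (permutation p = 0.443) and rho -0.376 (permutation p = 0.184). One animal shaped this value, since r was -0.698 without control 2, which had both the least MYH7 and the least IDH3A (187 CPM); it was -0.664 without control 2 and control 1, -0.695 in the animals with Y and -0.745 in those with A. Without control 2 the slope was -0.33 log2 per doubling (unadjusted p = 0.0247, adjusted p = 0.659). Without control 7, which had little MYH7 and the most IDH3A (264 CPM), the slope was 0.0001.

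For the other 6 genes no relation to MYH7 was detectable beyond the spread between animals. MDH2 had a slope of 1.14-fold (95% interval 0.946 to 1.38, unadjusted p = 0.155), CS of 1.11-fold (0.895 to 1.37, unadjusted p = 0.322), IDH3B of 1.08-fold (unadjusted p = 0.457), FH of 1.05-fold (unadjusted p = 0.593), SUCLG1 of 1.05-fold (unadjusted p = 0.562) and SUCLA2 of 1.04-fold (unadjusted p = 0.611). Their r with MYH7 ran from 0.110 for SUCLA2 to 0.359 for MDH2, and the permutation p was 0.213 or more. The log2 slope of CS fell from 0.15 to 0.04 without restricted 1, and that of MDH2 from 0.19 to 0.11 without control 1, without control 2 or without restricted 1. In the 11 animals with Y all 6 r values were negative, from -0.160 for CS to -0.593 for MDH2. The 3 animals with R, absent there, were control 1 with the most MYH7, control 2 with the least, and restricted 1. In the 9 animals with A, which include control 1, r was -0.201 to -0.327 for CS, IDH3B, SUCLA2, SUCLG1 and FH. It was 0.104 for MDH2. Without restricted 1 alone, r was negative for SUCLA2 (-0.0812), SUCLG1 (-0.0388) and FH (-0.0918). It stayed positive for CS, IDH3B and MDH2. Whether the title letter stands for anything about the samples cannot be told from the labels.

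**Figure D5:**
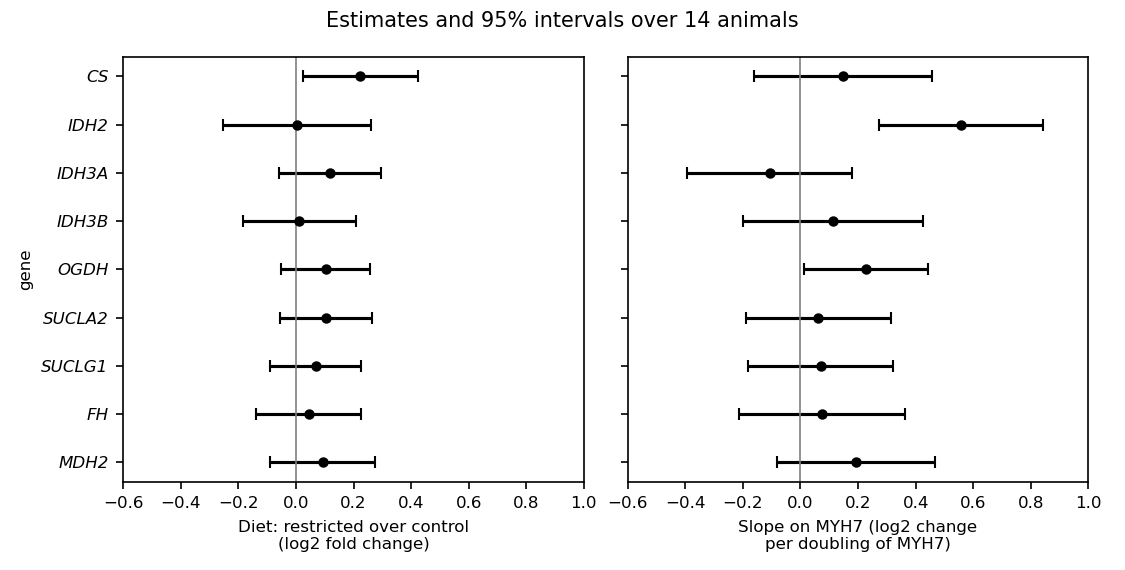
Estimates (points) with 95% intervals (bars) for the 9 genes over 14 animals, on the left the log2 fold change of restricted over control and on the right the log2 change per doubling of MYH7. On the left the interval of CS alone lies clear of 0, and on the right those of IDH2 and OGDH do; none of the 3 passes adjustment over all genes.

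Of the 27 other tested genes of the cycle and its entry 21 had positive slopes on MYH7, with a median of 0.09 log2 per doubling, and 0 passed the adjusted threshold. Unadjusted p values under 0.05 were reached by 4, named after their values were seen: MDH1, the cytosolic malate dehydrogenase (1.36-fold per doubling, unadjusted p = 0.00273, adjusted p = 0.403), GOT1 (1.51-fold, unadjusted p = 0.00568), MPC2, a subunit of the mitochondrial pyruvate carrier (1.30-fold, unadjusted p = 0.0125), and PDK2, another kinase of pyruvate dehydrogenase (1.28-fold, unadjusted p = 0.0418). SDHA (1.06-fold), IDH3G (1.02-fold) and DLST (0.995-fold) had unadjusted p values of 0.492, 0.816 and 0.952. Of the 8 regulators 7 had positive slopes and 3 an unadjusted p under 0.05: PPARGC1A (1.57-fold, adjusted p = 0.326), ESRRA (1.27-fold, adjusted p = 0.806) and PPARA, a fatty acid receptor gene named after its value was seen (1.48-fold, adjusted p = 0.165). TFAM had a slope of 1.11-fold (unadjusted p = 0.312).

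Whether the slope on MYH7 differed between the diets was tested with an interaction term. Of 12186 genes 0 (0%) passed the adjusted threshold and 780 (6.4%) had an unadjusted p under 0.05, among them 0 of the 9 enzymes. The difference, restricted minus control, was above 0 for 7 of 9, against 49.7% of all genes. It was largest for IDH3B, 0.56 log2 per doubling (95% interval -0.10 to 1.22, unadjusted p = 0.0926), and for CS, 0.52 (-0.14 to 1.18, unadjusted p = 0.115). For IDH2 it was 0.28 (-0.37 to 0.93, unadjusted p = 0.378), so a sizeable difference between the diets in either direction lay within the interval. For both IDH3B and CS, r with MYH7 was near 0 in the controls (-0.0869 and 0.0244) and 0.579 and 0.593 in the restricted animals, among which restricted 1 had the highest level of both genes. The interaction was not refitted without that animal.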

How the data were processed

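The deposited values were raw counts of reads per gene, and the tools listed in the submitters' processing notes are FastQC, HISAT2, featureCounts and edgeR, with the build ARS-UCD1.2. The labels record no versions, settings, annotation release or strand setting, so overlapping, antisense and near-identical genes cannot be told apart. Groups came from the treatment label. The analysis ran in R 4.3.3 and used edgeR 4.0.16: filterByExpr (minimum count 10, minimum total 15), trimmed mean of M-values scaling, the quasi-likelihood F test with intervals from the t distribution, and Benjamini-Hochberg adjustment over all genes at 0.05. Slopes used the centred log2 CPM (prior count 2) of MYH7. Correlations used two-sided permutation tests with 100000 resamples, exact where n was under 10. The scripts were tested on simulated data. Alternatives were other scalings, no low-count filter, DESeq2 1.42.0, limma 3.58.1 voom, title letters as terms or subsets, and each animal left out. The diet difference of the slope was refitted only with plain library sizes and with voom. A fitted value assumes that animals are independent. The members and gene lists were chosen with earlier results of these data known. The members, and a fixed set of genes per list, were named by rule; genes named for their values are marked so. One gene of these sets is not reported here. The table's build differs from that of the reference names supplied, so no coordinates are given.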

Additional observations from a re-analysis of the deposited data

Results flagged for a closer look

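Of 24 sets of 7 values examined (each gene, MYH7 and the summary levels in each diet group), 7 were flagged, all in the restricted group. In these 7 restricted 1 lay far above the other 6 restricted animals. The gap to the next animal divided by the range was above the 95% critical value of Dixon's test. The sets of the control group do not hold this animal. Chance alone gives about 1 such result in 20, the sets share animals, and the summary levels are made from the same 9 genes. CS was 682 CPM in restricted 1 and at most 532 CPM in the others. IDH3B was 320 CPM against at most 236 CPM, SUCLG1 354 CPM against at most 289 CPM, FH 284 CPM against at most 221 CPM, and MDH2 919 CPM against at most 736 CPM. The mean log2 CPM of the 9 genes was 8.68 against at most 8.39, and the 9 genes took 0.405% of its counts against at most 0.333%. IDH2, IDH3A, OGDH and SUCLA2 were not flagged in this animal, and 0 sets were flagged in the controls.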

How the results depend on the processing

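No paired analysis was possible because the replicate numbers only follow the order of the samples. The 9 genes had a mean of 3399 to 11281 counts per animal, and the spread between 7 animals a group also limits what can be seen. Direction and side of the threshold were kept in 183 of 207 alternatives for the diet differences of the 9 genes and in 208 of 225 for their slopes on MYH7. For their correlations with MYH7 the direction was kept in 179 of 198, and 0 members passed in any setting. The cause was not tested for any that changed. For diet, 1 gene passed with DESeq2 and 1 in the animals with titles ending in A, against 0. The log2 fold change of IDH2 turned to -0.0383 with plain library sizes, -0.0195 with library sizes without the 20 most abundant genes, -0.0038 with voom, -0.0419 in titles with Y and -0.134 in titles with A. That of IDH3B turned to -0.0309 with plain library sizes, -0.0115 without the 20 most abundant genes, -0.120 with Y and -0.143 with A. FH turned to -0.0326 with Y and -0.0568 with A, SUCLG1 to -0.0073 with A and MDH2 to -0.0276 with A. With A the values of OGDH and SUCLA2 fell to 0.0226 and 0.0090, and that of IDH3A to 0.0545. With 1 animal left out, IDH2 ran from -0.0674 to 0.0627, IDH3B from -0.0784 to 0.0432 and FH from -0.0299 to 0.0755, the lowest each time without restricted 1. For the slope on MYH7, 4 genes passed, against 50 with DESeq2 (1 of the 9, IDH2), 2 with the mean of 7 other slow fibre genes, 1 with A, 0 with Y, 0 with title letters as terms, and 0 to 5 with 1 animal left out, 0 in 10 of 14 fits. With Y the log2 slopes turned to -0.0218 for CS, -0.148 for IDH3B, -0.172 for SUCLA2, -0.148 for SUCLG1, -0.195 for FH and -0.163 for MDH2. With A they turned to -0.0262 for CS, -0.155 for IDH3B, -0.0723 for SUCLA2, -0.0540 for SUCLG1 and -0.124 for FH. With 1 animal left out they ran from -0.326 to 0.000114 for IDH3A, -0.0124 to 0.230 for IDH3B, -0.0118 to 0.134 for SUCLA2, -0.0040 to 0.123 for SUCLG1, -0.0342 to 0.149 for FH, 0.0383 to 0.237 for CS and 0.109 to 0.263 for MDH2. The diet difference of the slope of IDH3A, -0.0391, was 0.169 with plain library sizes and 0.0355 with voom. Correlations with MYH7 turned to -0.243 for CS, -0.290 for IDH3B, -0.281 for SUCLA2, -0.201 for SUCLG1 and -0.327 for FH with A. With Y they turned to -0.160 for CS, -0.213 for IDH3B, -0.494 for SUCLA2, -0.427 for SUCLG1, -0.437 for FH and -0.593 for MDH2. Without controls 1 and 2 they turned to -0.120 for SUCLA2, -0.0646 for SUCLG1, -0.0271 for FH and -0.0652 for MDH2. With 1 animal left out they ran from -0.0812 to 0.241 for SUCLA2, -0.0388 to 0.304 for SUCLG1 and -0.0918 to 0.268 for FH. The median correlation between pairs was -0.0925 with A, 0.298 with Y, 0.227 without restricted 1 and control 2, and 0.370 to 0.657 with 1 animal left out.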
